A study of Mus musculus with 9 samples.

Results

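The 10 genes described here encode enzymes that make serine, glycine, asparagine and proline and transporters that carry amino acids into the cell. They were chosen by name, as amino acid synthesis and uptake genes driven by the transcription factor ATF4, and are 10 of the 54532 gene IDs counted in 9 bulk RNA sequencing libraries of mouse osteoclasts. Phgdh, Psat1 and Psph form the serine branch, Shmt2 and Mthfd2 pass serine on to glycine and folate, Asns makes asparagine, Aldh18a1 and Pycr1 make proline, and Slc7a5 and Slc7a1 are transporters. All 10 had enough reads to be tested, among 14264 genes that did, and none passed through a single group alone. The fewest reads were those of Pycr1, with 68 to 124 per library.

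Osteoclasts, the multinucleated cells that resorb bone, were grown in vitro from bone marrow cells of mice in 3 groups of 3 libraries. KO_4OI cells carried the label of Acod1 deficiency and were given 4-octyl-itaconate, an itaconate ester that enters cells, at 50 µM on day 1. KO_CTR cells had the same genotype label and no stimulus, and WT_CTR cells were labelled as wild type and had no stimulus either. Every culture held 20 ng/ml of M-CSF with 10 ng/ml of RANKL and was collected on day 3. Acod1 encodes the enzyme that makes itaconate, and the sources used here do not say which part of the gene was deleted. Because wild-type cells did not receive the compound, KO_4OI against WT_CTR combines treatment with genotype label.

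Serine is built from a glycolytic intermediate, 3-phosphoglycerate, in 3 steps, and its side chain feeds the mitochondrial folate pathway that supplies carbon units for purines and thymidylate. Asparagine is made from aspartate and glutamine, and proline from glutamate by way of pyrroline-5-carboxylate. ATF4 is translated more when the initiation factor eIF2 is phosphorylated, as in amino acid shortage, and in mammals it binds C/EBP-ATF response elements, composite sites first described in genes such as Asns. In osteoclast cultures, serine in the medium is known to be needed for cells to form under RANKL.

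The promoters of 4 members show how the set differs in the sequence before the start site. They are the 250 bases before the transcription start in RefSeq's annotation of GRCm38.p6, minus strand, read 5′ to 3′; capitals mark matches to the motifs searched. Phgdh and Mthfd2 are shown as members that rose under the compound, Asns as the classical ATF4 target, and Pycr1 as the other member with a C/EBP-ATF match.
Phgdh (chr3:98339970-98340219): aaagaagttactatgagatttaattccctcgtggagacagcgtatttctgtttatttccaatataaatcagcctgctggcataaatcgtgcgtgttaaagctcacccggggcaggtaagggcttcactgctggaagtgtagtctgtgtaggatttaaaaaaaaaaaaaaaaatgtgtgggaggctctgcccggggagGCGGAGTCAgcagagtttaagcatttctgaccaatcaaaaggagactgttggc
Mthfd2 (chr6:83317605-83317854): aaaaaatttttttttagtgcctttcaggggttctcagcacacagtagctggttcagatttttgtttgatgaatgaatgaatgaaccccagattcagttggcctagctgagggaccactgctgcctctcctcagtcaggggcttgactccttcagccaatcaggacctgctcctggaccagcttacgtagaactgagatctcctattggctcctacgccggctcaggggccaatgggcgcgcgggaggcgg
Asns (chr6:7693210-7693459): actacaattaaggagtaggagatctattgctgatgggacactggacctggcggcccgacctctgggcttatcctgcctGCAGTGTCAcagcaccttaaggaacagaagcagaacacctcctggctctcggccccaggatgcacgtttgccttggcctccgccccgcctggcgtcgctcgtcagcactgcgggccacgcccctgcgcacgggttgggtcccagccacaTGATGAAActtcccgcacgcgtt
Pycr1 (chr11:120643749-120643998): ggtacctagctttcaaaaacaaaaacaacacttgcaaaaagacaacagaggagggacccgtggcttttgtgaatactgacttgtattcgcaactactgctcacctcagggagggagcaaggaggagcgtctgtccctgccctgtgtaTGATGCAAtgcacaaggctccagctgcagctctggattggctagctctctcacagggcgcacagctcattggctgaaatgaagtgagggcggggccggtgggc
The motifs were TGATGNAA (the C/EBP-ATF response element), TGACNNNGC (the core of the antioxidant response element, bound by NRF2) and CACGTG (the E-box, bound by MYC and USF factors), searched on both strands. Of the 9 members with a promoter in the table, Asns had TGATGAAA at 23 bases before the start and Pycr1 had TGATGCAA at 103. So 2 of 9 genes, and 2 of their 11 windows, matched TGATGNAA, beside 3.45% of all 32851 windows of the same length. TGACNNNGC was found in 3 genes and 3 of the 11 windows, beside 10.2% of all windows. On the strand complementary to the one printed it read TGACTCCGC in Phgdh at 53 bases before the start, TGACACTGC in Asns at 172 and TGACAGCGC in Slc7a1 at 11. CACGTG was found in 1 gene and 1 of the 11 windows, that of Aldh18a1 at 59 bases, beside 6.02% of all windows. The windows of Psat1, Mthfd2, Psph and Shmt2 held none of these letters. So of the 3 members that rose under 4-octyl-itaconate, Phgdh had a match, to TGACNNNGC, and Psat1 and Mthfd2 had none in the windows searched. Asns and Slc7a1, which matched TGACNNNGC as well, did not pass in KO_4OI against KO_CTR. Any link between the matches and the rise was not tested. In GENCODE the outermost start lies upstream of these windows for Mthfd2 (83325908) and Psat1 (15947337), and the bases before it were not searched. It lies inside the window for Asns (7693254), Phgdh (98339990), Psph (129787449) and Pycr1 (120643769). The TGATGAAA of Asns is downstream of that GENCODE start, within the annotated gene. The matches in Phgdh and Pycr1 are upstream of theirs. Slc7a5 was not in the table. These matches describe letters, not bound sites.

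Library totals ran from 24830149 to 35143629 reads. Acod1 itself had 131 to 168 reads in KO_4OI libraries, 47 to 86 in KO_CTR and 24 to 55 in WT_CTR, so its reads were not lower in libraries labelled KO, and the group names below are the labels. Xist reads were counted in KO_4OI replicate 3 and WT_CTR replicate 2 and in no other library. The summed level of 14 osteoclast markers was 10012 to 12781 CPM in KO_4OI, 30156 to 37384 in KO_CTR and 26757 to 28326 in WT_CTR, and none of the 14 was at 0. CPM are per-million-read values, with library sizes scaled by TMM. The sum of 10 cell cycle genes was 1855 to 1945 CPM in KO_4OI, 955 to 1357 in KO_CTR and 1568 to 1814 in WT_CTR. Macrophage markers summed to 2721 to 3050.0 CPM in KO_4OI, 3258 to 4451 in KO_CTR and 2622 to 3108 in WT_CTR, and neutrophil markers to 933 to 1167 in KO_4OI, 734 to 1170.4 in KO_CTR and 614 to 922 in WT_CTR. B cell markers summed to at most 50.1 CPM in any library, erythroid to 18.8, stromal to 7.21 and T and NK cell markers to 2.91. The part of these cell markers in the results below was not tested, and in bulk RNA fewer cells of a type and less RNA per cell cannot be told apart.

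Under 4-octyl-itaconate the first enzymes of serine synthesis and the folate enzyme Mthfd2 were higher, and the rest of the set did not pass the test. Phgdh, Psat1 and Mthfd2 rose in KO_4OI against KO_CTR, to 1.90, 1.58 and 1.36 times the KO_CTR level, and no member fell (14.2% of all genes did). The call of Mthfd2 (adjusted p = 0.0453 in edgeR) was kept in 4 of 20 other analyses, whereas those of Phgdh and Psat1 were kept in 20 of 20. These 3 of 10 compare with 27.3% of all genes tested that passed an adjusted p of 0.05 in edgeR's quasi-likelihood test, and with 13.0% of all genes that did so as higher. The members' share was near the background for calls in either direction and above it for higher calls, a difference that was not tested. In the same 3 genes each KO_4OI library lay above each KO_CTR library, which held for 19.8% of all genes. The median log2 fold change of the 10 members was 0.11, against 0.02 over all genes tested. In the same comparison 6 of 10 cell cycle genes rose (median 0.60 on the log2 scale), and 14 of 14 osteoclast markers fell (median -1.55). Of 8 macrophage markers 2 rose and 3 fell, and of 8 neutrophil markers 1 rose. Their part in the rise of Phgdh, Psat1 and Mthfd2 was not tested.

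Against WT_CTR the set divided. Phgdh was higher in KO_4OI, to 1.58 times the WT_CTR level, while Slc7a5, Slc7a1 and Shmt2 fell, to 0.540, 0.618 and 0.677 times it. The 4 called members compare with 24.3% of all genes, of which 12.1% were higher and 12.2% lower. Libraries did not overlap for 2 members that were higher (Phgdh and Psat1, against 19.8% of all genes) and 6 that were lower (Slc7a5, Slc7a1, Shmt2, Aldh18a1, Asns and Psph, against 22.1%). The median of the members was -0.29 log2, against -0.03 over all genes. In the same comparison 14 of 14 osteoclast markers fell (median -1.37), and 4 of 8 macrophage markers rose and 1 fell. Of 8 neutrophil markers 3 rose, and of 6 B cell markers 2 rose. Of 10 cell cycle genes 1 rose and 0 fell, with a median of 0.06 on the log2 scale, beside -0.29 for the members. The part of all these markers and genes in the members' values was not tested. This count depended on single libraries: 1 member was called without WT_CTR replicate 1, 1 without WT_CTR replicate 2, 1 without WT_CTR replicate 3, 2 without KO_4OI replicate 2 and 0 without KO_4OI replicate 1.

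Unstimulated cells labelled KO had lower values than wild-type cells for every member, with no single gene past the threshold. In KO_CTR against WT_CTR edgeR called 0 of 10 members, beside 0.519% of all genes. At an unadjusted p of 0.05, 7 of 10 passed, beside 17.8% of all genes. DESeq2 called 2 members (Slc7a5 and Slc7a1), beside 4.41% of all genes, and limma-trend 0, beside 0.407%. All 10 log2 fold changes were negative, beside 53.1% of all genes, with a median of -0.46 against -0.03. For 8 members each KO_CTR library lay below each WT_CTR library, beside 9.56% of all genes, and the exceptions were Phgdh and Pycr1. The cell cycle list moved the same way, with 10 of 10 log2 fold changes negative, a median of -0.49 and 0 of 10 called by edgeR (8 at the unadjusted p, 2 by DESeq2 and 0 by limma-trend). Macrophage markers had 8 of 8 positive values, with a median of 0.70, 6 at the unadjusted p and 1 called by edgeR, 3 by DESeq2 and 0 by limma-trend. B cell markers had 6 of 6 positive values, with a median of 0.93, 6 at the unadjusted p and 0 called by edgeR, 4 by DESeq2 and 0 by limma-trend. Osteoclast markers had 7 positive and 7 negative values, with a median of 0.10, 3 at the unadjusted p and 0 called by edgeR. Neutrophil markers had 7 positive values and 1 negative, with a median of 0.28, 0 at the unadjusted p and 0 called by edgeR. The part of these lists in the members' values was not tested. KO_CTR libraries serve as the reference of the first comparison and as the test of this one, so the 2 sets of fold changes are not independent.

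**Figure D1:**
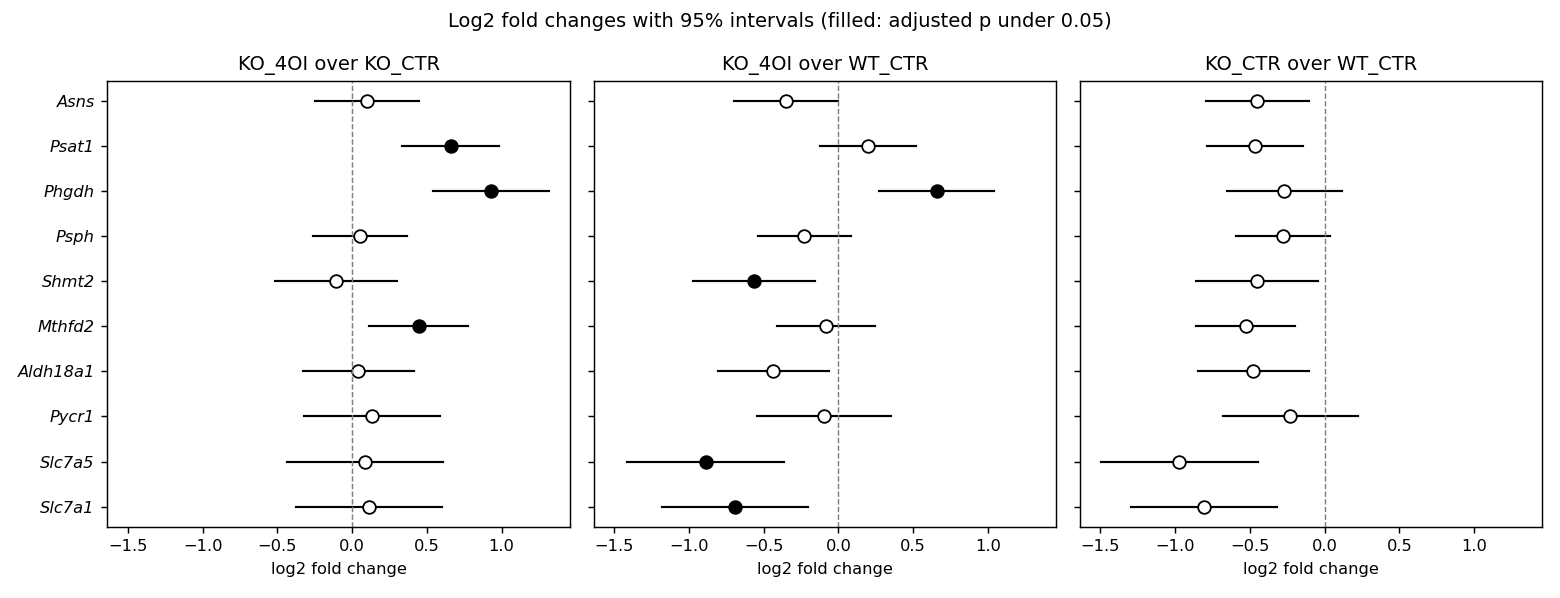
Log2 fold change (x axis) of each of the 10 genes (y axis) in the 3 comparisons, with 95% intervals; filled points have an adjusted p under 0.05. Phgdh, Psat1 and Mthfd2 lie right of 0 in the first panel, Phgdh right and Slc7a5, Slc7a1 and Shmt2 left of 0 in the second, and all 10 points lie left of 0 in the third with none filled.

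Phgdh (ENSMUSG00000053398, mm10 chromosome 3, 98313170 to 98339990, minus strand) encodes phosphoglycerate dehydrogenase, which draws 3-phosphoglycerate out of glycolysis as the first step of serine synthesis. It had 38.0, 29.7 and 44.1 CPM in KO_4OI replicates 1, 2 and 3, against 21.8, 18.1 and 18.8 in KO_CTR and 22.6, 21.1 and 27.2 in WT_CTR. Its lowest KO_4OI library stood above the highest library of either other group, while KO_CTR and WT_CTR overlapped. The log2 fold change was 0.93 ± 0.18 (SE, adjusted p = 0.00181) in KO_4OI against KO_CTR and 0.66 ± 0.18 (adjusted p = 0.0154) against WT_CTR, by edgeR with Benjamini-Hochberg adjustment. In KO_CTR against WT_CTR it was -0.27, with a 95% interval of -0.66 to 0.12 and an adjusted p of 0.451. The call against KO_CTR was kept in 20 of 20 other analyses, and the call against WT_CTR in 15 of 20. It was lost without WT_CTR replicate 1 (adjusted p = 0.0652), WT_CTR replicate 2 (0.0827), KO_4OI replicate 1 (0.0579) or KO_4OI replicate 3 (0.0655), and without both libraries that hold Xist reads (0.218). The reference genome holds 9 processed pseudogenes at least 95% identical to Phgdh over 200 or more bases. They took 25 reads in the 9 libraries together, against 6790 for Phgdh, so reads that fit several copies may have been dropped and its level is less certain.

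Psat1 (ENSMUSG00000024640, chromosome 19, 15904678 to 15947337, minus strand) encodes phosphoserine aminotransferase, the second enzyme of the branch. Psat1 had 129, 122 and 127 CPM in KO_4OI, against 81.3, 65.0 and 92.7 in KO_CTR and 119, 109.8 and 101 in WT_CTR. KO_4OI libraries were the highest and the most alike, KO_CTR libraries were the lowest, and no group overlapped another. The log2 fold change was 0.66 ± 0.15 (SE, adjusted p = 0.00517) in KO_4OI against KO_CTR and passed in 20 of 20 other analyses. Against WT_CTR it was 0.20, with a 95% interval of -0.13 to 0.52 (adjusted p = 0.402), which leaves room for an increase of up to 0.52. In KO_CTR against WT_CTR it was -0.46 (95% interval -0.79 to -0.14, unadjusted p = 0.00821, adjusted p = 0.145).

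Psph (ENSMUSG00000029446, chromosome 5, 129765558 to 129787449, minus strand) encodes phosphoserine phosphatase, which releases free serine in the last step. It had 17.1, 15.5 and 16.5 CPM in KO_4OI, against 14.4, 16.8 and 16.2 in KO_CTR and 19.2, 18.8 and 19.5 in WT_CTR. KO_4OI and KO_CTR overlapped, and both lay below the narrow range of WT_CTR. No comparison passed: the log2 fold change was 0.05 in KO_4OI against KO_CTR (95% interval -0.26 to 0.37, adjusted p = 0.827), -0.23 in KO_4OI against WT_CTR (-0.54 to 0.09, adjusted p = 0.306) and -0.28 in KO_CTR against WT_CTR (-0.59 to 0.03, adjusted p = 0.335). The interval against KO_CTR ends below the point estimates of Phgdh and Psat1 in the same comparison. The annotation gives Psph 452 exon bases in common with Cct6a, a chaperonin gene on the opposite strand with 76441 reads. Whether the counting used strand is not stated, and without strand reads of the 2 genes in that stretch cannot be told apart.

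Shmt2 (ENSMUSG00000025403, chromosome 10, 127517123 to 127522444, minus strand) encodes the mitochondrial serine hydroxymethyltransferase, which splits serine into glycine and a folate-bound carbon unit. It had 93.3, 69.1 and 119 CPM in KO_4OI, against 104, 113 and 87.2 in KO_CTR and 138, 124 and 153 in WT_CTR. KO_4OI libraries spread over the whole range of KO_CTR and beyond, and all 6 libraries labelled KO lay below the 3 wild-type ones. Shmt2 fell in KO_4OI against WT_CTR, by 0.56 on the log2 scale (adjusted p = 0.0443 in edgeR), a call kept in 8 of 20 other analyses with adjusted p between 0.00971 and 0.185. Leaving out 1 of 6 libraries ended it, WT_CTR replicates 1 (adjusted p = 0.105), 2 (0.0640) and 3 (0.162), KO_CTR replicate 1 (0.0683) and KO_4OI replicates 1 (0.131) and 2 (0.185). The log2 fold change was -0.11 in KO_4OI against KO_CTR (95% interval -0.52 to 0.30, adjusted p = 0.708) and -0.45 in KO_CTR against WT_CTR (-0.86 to -0.05, adjusted p = 0.238).

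Mthfd2 (ENSMUSG00000005667, chromosome 6, 83305691 to 83325908, minus strand) encodes the mitochondrial methylenetetrahydrofolate dehydrogenase and cyclohydrolase that takes up the carbon unit released by Shmt2. Mthfd2 had 111, 98.9 and 109 CPM in KO_4OI, against 80.5, 63.8 and 89.3 in KO_CTR and 119, 119 and 99.0 in WT_CTR. KO_4OI lay above KO_CTR in every library and overlapped WT_CTR at its lower end. The log2 fold change was 0.45 ± 0.15 (SE, adjusted p = 0.0453) in KO_4OI against KO_CTR, near the threshold. It passed in 4 of 20 other analyses, with adjusted p between 0.0243 and 0.171. Leaving out any library other than KO_CTR replicate 3 ended the call, with an adjusted p of 0.156 without KO_4OI replicate 1, 0.0635 without KO_4OI replicate 2, 0.0964 without KO_4OI replicate 3, 0.0881 without KO_CTR replicate 1, 0.171 without KO_CTR replicate 2, and 0.0569 to 0.0709 without a WT_CTR library. Against WT_CTR the KO_4OI value was -0.08 (95% interval -0.41 to 0.25, adjusted p = 0.772), and KO_CTR against WT_CTR gave -0.53 (-0.86 to -0.20, adjusted p = 0.120).

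In KO_4OI against KO_CTR other folate and glycine genes changed in both directions, with shares near those of all genes. Of 25 genes of serine, glycine and folate metabolism that are not members, 22 were tested. Of these 3 rose and 3 fell, beside 13.0% and 14.2% of all genes, with a median log2 fold change of -0.10. Mthfd1l, the mitochondrial enzyme that turns the carbon unit into formate, rose by 0.78 (adjusted p = 0.00188) to 52.9 ± 6.39 CPM, against 30.9 ± 2.37 in KO_CTR (SD, n = 3 each). Sptlc2, a subunit of the serine palmitoyltransferase that begins sphingolipid synthesis, rose by 0.87 (adjusted p = 0.00224), and Tyms, thymidylate synthase, by 0.57 (adjusted p = 0.0157). Aldh1l1, a cytosolic formyltetrahydrofolate dehydrogenase, fell by 1.36 (adjusted p = 0.000589), and the low-level genes Cth, cystathionine gamma-lyase, and Sdsl, related to serine dehydratase, fell by 1.04 (adjusted p = 0.0465) and 0.79 (adjusted p = 0.0438). Against WT_CTR, 9 of the 22 fell and 1 (Sptlc2) rose, beside 12.2% and 12.1% of all genes. Among those that fell were the cytosolic counterparts Shmt1, by 0.67 (adjusted p = 0.0102), and Mthfd1, by 0.61 (adjusted p = 0.0117). Mthfd2l, a paralog of Mthfd2, passed in no comparison, at 5.14, 5.90 and 6.56 CPM in KO_4OI, KO_CTR and WT_CTR. For KO_CTR against WT_CTR edgeR called 0 of the 22, with 7 at the unadjusted p, 1 by DESeq2 and 0 by limma-trend. Beside these stand 0.519%, 17.8%, 4.41% and 0.407% of all genes, shares that hold for each list below.

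Asns (ENSMUSG00000029752, chromosome 6, 7675169 to 7693254, minus strand) encodes asparagine synthetase, a much-used reporter of ATF4 activity. Asns had 56.2, 48.9 and 56.6 CPM in KO_4OI, against 52.8, 41.2 and 57.0 in KO_CTR and 67.2, 77.5 and 61.6 in WT_CTR. KO_4OI and KO_CTR overlapped, and all 6 of their libraries lay below the lowest WT_CTR library. No comparison passed in edgeR. The log2 fold change was 0.10 in KO_4OI against KO_CTR (95% interval -0.25 to 0.45, adjusted p = 0.688), so an increase above 0.45 lies outside the interval. It was -0.35 in KO_4OI against WT_CTR (-0.70 to -0.00, adjusted p = 0.141) and -0.45 in KO_CTR against WT_CTR (-0.80 to -0.10, adjusted p = 0.182).

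Around Asns, genes of glutamine metabolism and transamination passed the test in both directions. Of 14 genes of asparagine, aspartate and glutamate metabolism, 12 were tested. In KO_4OI against KO_CTR 2 of these rose and 4 fell, beside 13.0% and 14.2% of all genes. Glul, glutamine synthetase, had 907 ± 121 CPM in KO_4OI, against 283 ± 73.0 in KO_CTR and 201 ± 23.5 in WT_CTR (SD, n = 3 each), and rose by 1.68 on the log2 scale against KO_CTR (adjusted p = 1.88e-05) and by 2.17 against WT_CTR (adjusted p = 2.64e-06). Got1, the cytosolic aspartate aminotransferase, fell by 0.83 (adjusted p = 0.000943), and the alanine aminotransferases Gpt2 and Gpt fell by 0.65 (adjusted p = 0.00672) and 0.67 (adjusted p = 0.0119). Gfpt1, which uses glutamine for hexosamine synthesis, fell by 1.04 (adjusted p = 0.00162). Against WT_CTR 1 of the 12 rose (Glul) and 3 fell (Got1, Gfpt1 and Gpt2), beside 12.1% and 12.2% of all genes. In KO_CTR against WT_CTR edgeR called 0 of 12, with 4 at the unadjusted p and 0 by DESeq2 and by limma-trend.

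Aldh18a1 (ENSMUSG00000025007, chromosome 19, 40550257 to 40588463, minus strand) encodes pyrroline-5-carboxylate synthase, which commits glutamate to proline and ornithine. It had 44.0, 30.4 and 48.5 CPM in KO_4OI, against 41.2, 40.9 and 37.2 in KO_CTR and 55.5, 55.8 and 54.7 in WT_CTR. The KO_4OI libraries straddled those of KO_CTR, and WT_CTR libraries were higher and nearly alike. No comparison passed: the log2 fold change was 0.04 in KO_4OI against KO_CTR (95% interval -0.33 to 0.41, adjusted p = 0.880), -0.43 in KO_4OI against WT_CTR (-0.80 to -0.06, adjusted p = 0.0862) and -0.48 in KO_CTR against WT_CTR (-0.85 to -0.11, adjusted p = 0.184).

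Pycr1 (ENSMUSG00000025140, chromosome 11, 120635712 to 120643769, minus strand) encodes a mitochondrial pyrroline-5-carboxylate reductase, the last step to proline. It had 3.26, 2.54 and 3.67 CPM in KO_4OI, against 3.01, 3.01 and 2.60 in KO_CTR and 2.97, 3.59 and 3.53 in WT_CTR. All 3 groups overlapped. The log2 fold change was 0.14 in KO_4OI against KO_CTR (95% interval -0.32 to 0.59, adjusted p = 0.677), -0.09 in KO_4OI against WT_CTR (-0.54 to 0.35, adjusted p = 0.807) and -0.23 in KO_CTR against WT_CTR (-0.68 to 0.22, adjusted p = 0.588).

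Of 14 other genes of proline, arginine and ornithine metabolism, 12 were tested. In KO_4OI against KO_CTR 5 of these rose and 2 fell, beside 13.0% and 14.2% of all genes. The cytosolic reductase Pycr3 had 39.9 CPM in KO_4OI and 45.8 in KO_CTR (log2 fold change -0.20, adjusted p = 0.425). Both enzymes of mitochondrial proline breakdown fell, Prodh by 0.62 (adjusted p = 0.0216) and Aldh4a1 by 1.41 (adjusted p = 0.000347). The prolyl hydroxylase subunits P4ha1 and P4ha2, which act on proline within collagen, rose by 0.89 (adjusted p = 0.00718) and 1.30 (adjusted p = 0.000652). Odc1, ornithine decarboxylase, rose by 0.62 (adjusted p = 0.0111), and the mitochondrial arginase Arg2, at 1.34 CPM in KO_4OI and 0.501 in KO_CTR, by 1.41 (adjusted p = 0.0267). Against WT_CTR, Arg2 and P4ha2 rose and Prodh and Aldh4a1 fell, where 12.1% of all genes rose and 12.2% fell. For KO_CTR against WT_CTR edgeR called 0 of 12, with 1 at the unadjusted p and 0 by DESeq2 and by limma-trend.

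Slc7a5 (ENSMUSG00000040010, chromosome 8, 121881150 to 121907694, minus strand) encodes LAT1, the transporter of leucine and other large neutral amino acids, which works as a pair with the heavy chain encoded by Slc3a2. Slc7a5 had 28.4, 17.8 and 40.9 CPM in KO_4OI, against 29.4, 29.9 and 22.8 in KO_CTR and 55.4, 49.2 and 56.5 in WT_CTR. All 6 libraries labelled KO lay below the 3 wild-type ones, and the KO_4OI libraries spread the most of any member in any group, with the highest 2.30 times the lowest. Slc7a5 fell in KO_4OI against WT_CTR by 0.89 on the log2 scale (SE 0.24, adjusted p = 0.0159), and 18 of 20 other analyses kept that call. It was lost without WT_CTR replicate 3 (adjusted p = 0.0504) or KO_4OI replicate 1 (0.0591). In KO_CTR against WT_CTR the log2 fold change was -0.97 (95% interval -1.50 to -0.45, unadjusted p = 0.00145, adjusted p = 0.0857), and 99.1% of all genes tested had a larger value. It passed there in 6 of 20 other analyses, among them those without KO_4OI replicate 2 (adjusted p = 0.0318) or replicate 3 (0.0446), with an adjusted p between 1.34e-07 and 0.362. The lowest of these came from leaving out 1 divergent library of each group, chosen from these same data. In KO_4OI against KO_CTR the value was 0.08 (95% interval -0.44 to 0.61, adjusted p = 0.830).

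Slc7a1 (ENSMUSG00000041313, chromosome 5, 148327410 to 148399904, minus strand) encodes CAT1, a transporter of arginine and lysine. Slc7a1 had 59.2, 37.3 and 74.4 CPM in KO_4OI, against 65.3, 46.2 and 46.5 in KO_CTR and 102, 93.3 and 81.0 in WT_CTR. Again the libraries labelled KO all lay below the wild-type ones and overlapped each other. Slc7a1 fell in KO_4OI against WT_CTR by 0.69 (SE 0.23, adjusted p = 0.0397), a call kept in 15 of 20 other analyses. It was lost without WT_CTR replicates 1 (adjusted p = 0.132), 2 (0.0991) or 3 (0.0561), or KO_4OI replicates 1 (0.0970) or 2 (0.150). KO_CTR against WT_CTR gave -0.81 (95% interval -1.30 to -0.32, unadjusted p = 0.00348, adjusted p = 0.111), and KO_4OI against KO_CTR gave 0.11 (-0.38 to 0.60, adjusted p = 0.750).

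**Figure D2:**
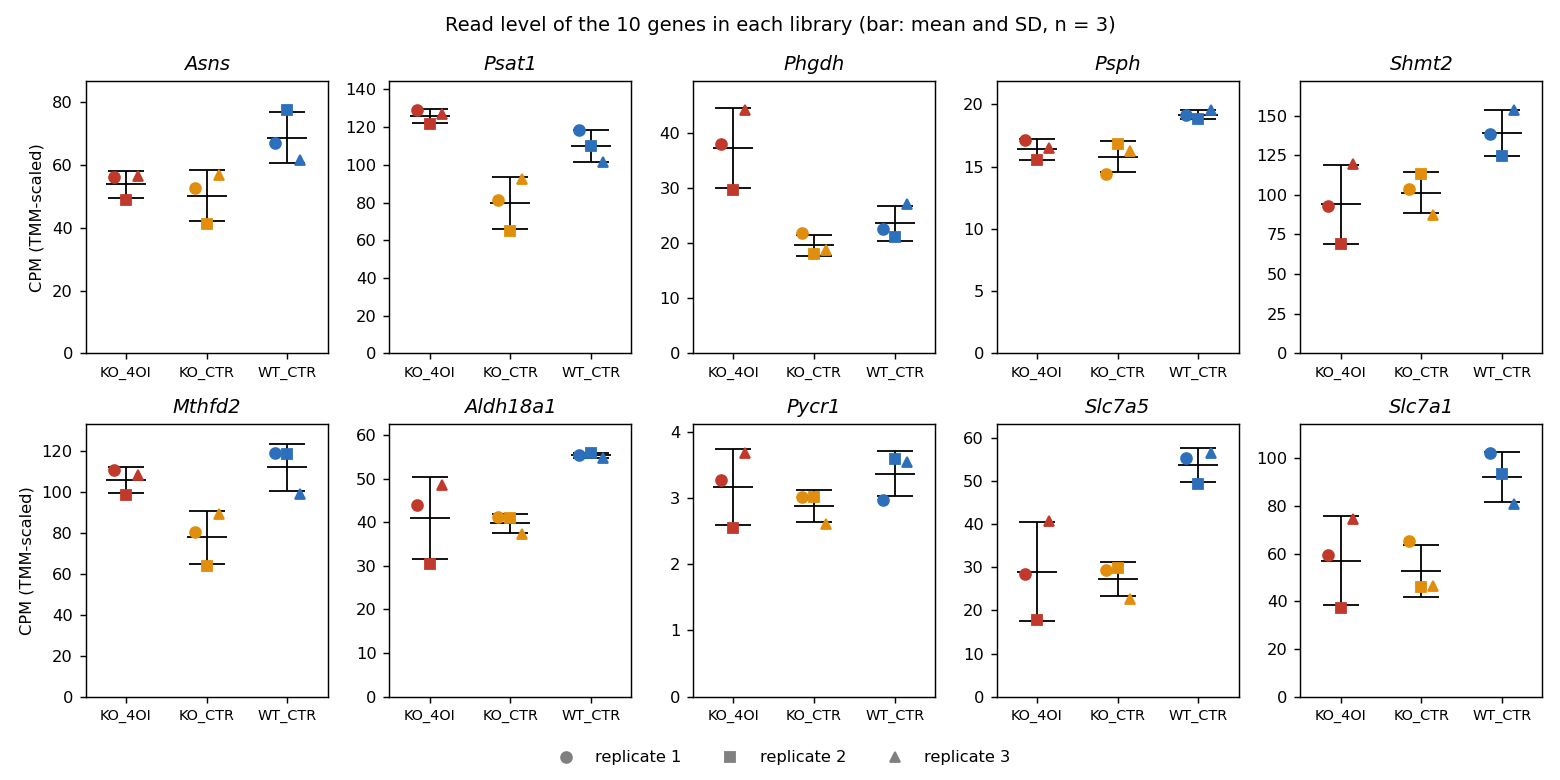
Level of each of the 10 genes in CPM (y axes from 0) in every library of KO_4OI, KO_CTR and WT_CTR (x axes), with symbols for the replicate number and bars for the mean and SD of 3 libraries. Phgdh is highest in KO_4OI, KO_CTR is lowest for Psat1 and Mthfd2, and both KO groups lie below WT_CTR for Asns, Psph, Shmt2, Aldh18a1, Slc7a5 and Slc7a1.

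Several other amino acid carriers passed the test. Of 22 listed, 21 were tested, and in KO_4OI against KO_CTR 8 rose and 1 fell, beside 13.0% and 14.2% of all genes. Slc7a11, which imports cystine, had 113 ± 26.7 CPM in KO_4OI, against 2.75 ± 0.464 in KO_CTR and 2.24 ± 0.541 in WT_CTR (SD, n = 3 each), a log2 fold change of 5.35 against KO_CTR (adjusted p = 1.25e-08). Its heavy chain Slc3a2, shared with Slc7a5, rose by 0.67 (adjusted p = 0.0232) to 217 ± 39.9 CPM, against 136 ± 36.1 in KO_CTR, whereas Slc7a5 did not pass in that comparison. The glycine transporter Slc6a9 rose by 3.70 (adjusted p = 1.49e-07) to 11.7 CPM, against 0.911 in KO_CTR. Slc1a4, which carries serine and alanine, rose by 1.08 (adjusted p = 0.00797), Slc36a1, a proton-coupled carrier of small amino acids, by 0.91 (adjusted p = 0.00697), and Slc7a2, a paralog of Slc7a1, by 1.55 (adjusted p = 0.00589) at 1.39 CPM in KO_4OI and 0.467 in KO_CTR. Slc1a5, which carries glutamine and serine, fell by 1.10 (adjusted p = 0.00133) to 149 ± 39.9 CPM, against 319 ± 71.4 in KO_CTR. Against WT_CTR 4 of the 21 rose and 1 (Slc1a5) fell, beside 12.1% and 12.2% of all genes. In KO_CTR against WT_CTR edgeR called 0, with 5 at the unadjusted p and 0 by DESeq2 and by limma-trend.

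Per length, Shmt2, Mthfd2 and Psat1 held the top 3 places in each group and Pycr1 the last. Levels were divided by the length of all exons, in CPM per kb. In KO_4OI the order was Mthfd2 (30.4 ± 1.82), Shmt2 (30.2 ± 8.10), Psat1 (29.6 ± 0.869), Asns (19.7), Phgdh (15), Aldh18a1 (10.1), Slc7a5 (7.83), Slc7a1 (4.94), Psph (3.78) and Pycr1 (0.802). The ranges of mean ± SD met among the first 3 and between each pair of neighbours from Phgdh down to Psph. In KO_CTR the order was Shmt2 (32.6), Mthfd2 (22.3), Psat1 (18.7), Asns (18.4), Aldh18a1 (9.77), Phgdh (7.88), Slc7a5 (7.38), Slc7a1 (4.57), Psph (3.65) and Pycr1 (0.731), and neighbours whose ranges of mean ± SD met were Mthfd2 with Psat1, Psat1 with Asns, Phgdh with Slc7a5, and Slc7a1 with Psph. In WT_CTR the order was Shmt2 (44.6), Mthfd2 (32.2), Psat1 (25.8), Asns (25.1), Slc7a5 (14.5), Aldh18a1 (13.6), Phgdh (9.50), Slc7a1 (7.99), Psph (4.43) and Pycr1 (0.855), with Psat1 and Asns, Slc7a5 and Aldh18a1, and Phgdh and Slc7a1 meeting in their ranges of mean ± SD. Slc7a5 lay above Phgdh by more than both SDs in WT_CTR and within the SD of Phgdh in KO_CTR. With the longest transcript as the length, 8, 10 and 6 members held the same rank in KO_4OI, KO_CTR and WT_CTR. The cytosolic Pycr3 had 29.8, 34.2 and 36.7 CPM per kb in KO_4OI, KO_CTR and WT_CTR, against 0.802, 0.731 and 0.855 for Pycr1.

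**Figure D3:**
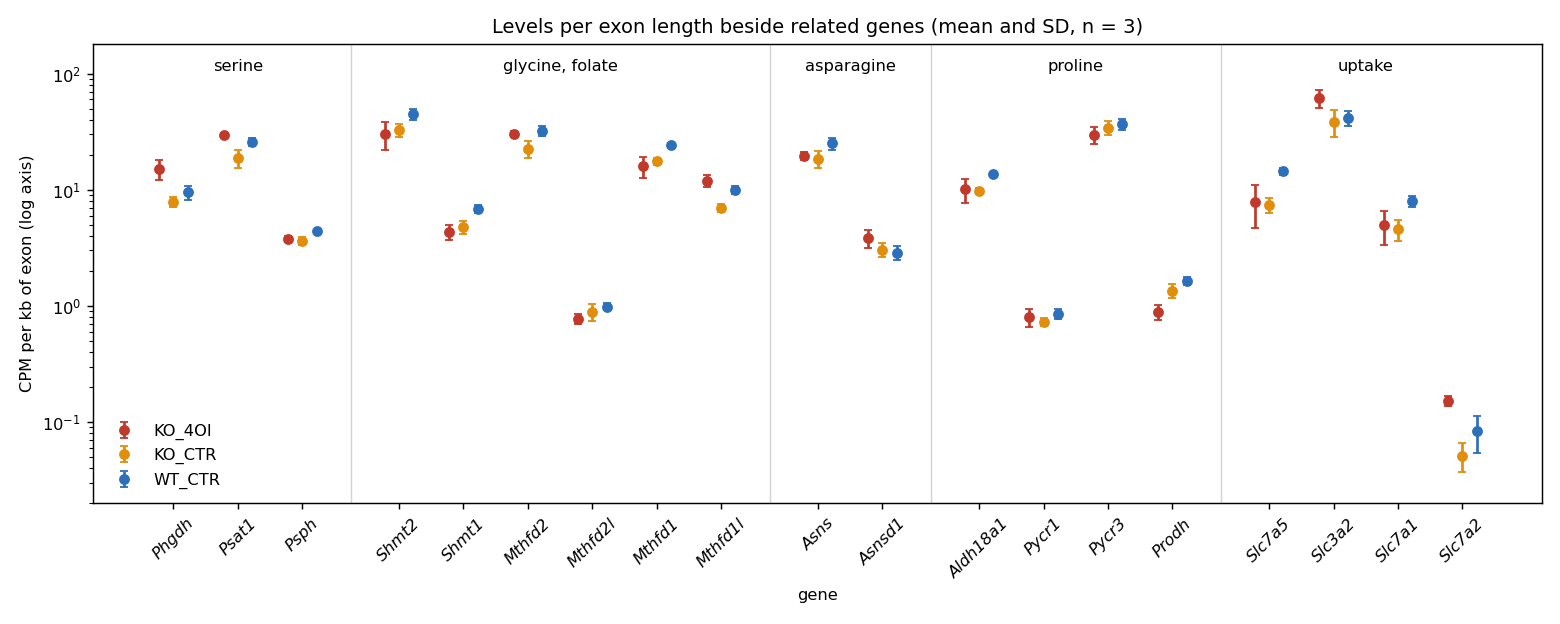
Mean level and SD (n = 3) in CPM per kb of exon (y axis, log scale) of the 10 genes and 9 related genes (x axis), grouped by pathway, in KO_4OI, KO_CTR and WT_CTR. Shmt2 and Mthfd2 stand above Shmt1 and Mthfd2l, Pycr1 stands below Pycr3, and Slc3a2 stands above Slc7a5 in every group.

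Within groups, the members did not vary together as 1 block. KO_4OI replicate 2 was the lowest of its group for 10 of 10 members, and replicate 3 was the highest for 7 and replicate 1 for the other 3 (Psat1, Mthfd2 and Psph). In KO_CTR, replicate 2 was the lowest for 5 members. The share of all genes with these orders was not counted, so they may not be particular to the members. Over the deviations of the 9 libraries from their group means, Asns, Psat1 and Mthfd2 followed each other with Pearson r of 0.82 to 0.95, and Phgdh, Shmt2, Aldh18a1, Pycr1, Slc7a5 and Slc7a1 with r of 0.67 to 0.97. Between these sets r ran from -0.32 to 0.48. Psph is in neither set, with r of -0.23 to 0.36 with the other members. The sets were chosen after their values were seen, the same 9 libraries enter every r, and the values are a description of these libraries. Over the 9 libraries Phgdh thus deviated more with the transporters and Shmt2 than with Psat1, the enzyme next to it in the pathway. For each gene of its set the largest deviations were in KO_4OI replicates 2 and 3 (-0.31 and 0.26 for Phgdh, -0.63 and 0.57 for Slc7a5). In KO_CTR replicate 2 Phgdh was at -0.11, and Shmt2 and Slc7a5 were at 0.16 and 0.14. In WT_CTR replicates 1 to 3 Phgdh was at -0.06, -0.15 and 0.21, Slc7a1 at 0.15, 0.02 and -0.18, and Shmt2 at 0.00, -0.15 and 0.15.

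**Figure D4:**
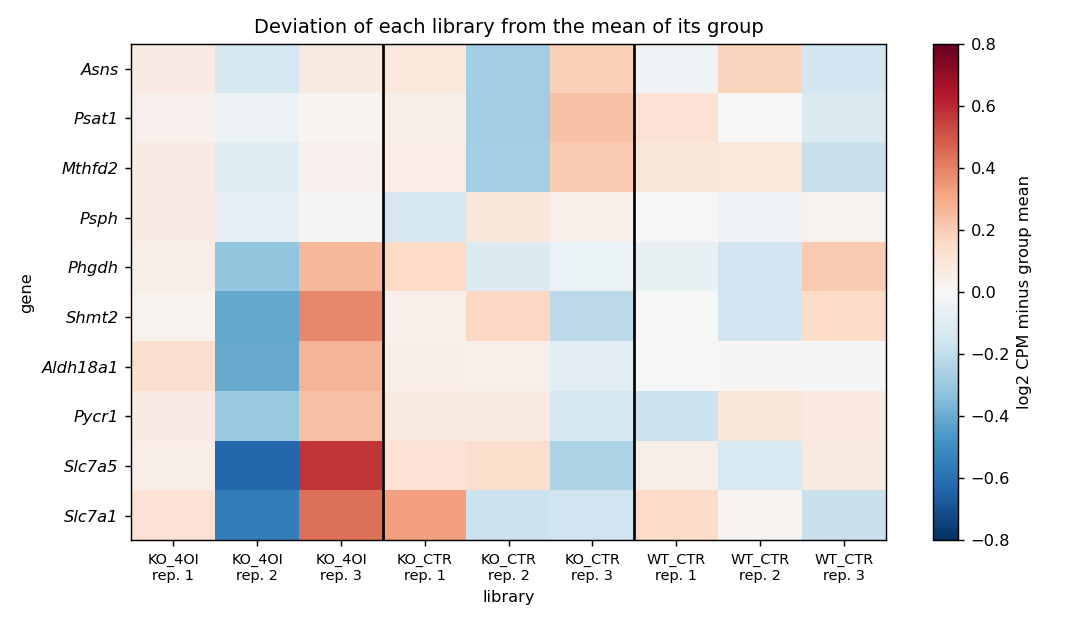
Deviation of each library from the mean of its own group in log2 CPM (colour, blue lower, red higher) for the 10 genes (rows) in the 9 libraries (columns, KO_4OI, KO_CTR, WT_CTR). KO_4OI replicate 2 is blue for all 10 genes, and KO_CTR replicate 2 is blue for Asns, Psat1 and Mthfd2 but red for Shmt2 and Slc7a5.

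Among 9893 genes with a mean of at least 5 CPM, those most like Phgdh over the 9 libraries in log2 CPM were Cacng8 (Pearson r = 0.969), Ddx23 (0.966) and Gm42517 (0.962). The 3 most like Asns were Ap1s3 (0.962), Fbxw7 (0.956) and Lig3 (0.955). The 3 most like Pycr1 were D030056L22Rik (0.925), Tsen54 (0.919) and Tmem238 (0.914). Pycr1 had a mean under 5 CPM, so it could not be among the nearest genes of Asns or Phgdh. No other member stood among the 3 nearest genes of Asns, Phgdh or Pycr1.

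Genes around ATF4 changed in both directions. Atf4 mRNA had 309.9 ± 27.8 CPM in KO_4OI, against 263 ± 13.2 in KO_CTR and 300.3 ± 10.1 in WT_CTR (SD, n = 3 each), a log2 fold change of 0.24 against KO_CTR (adjusted p = 0.176). Of 25 genes of the ATF4 axis, 23 were tested. In KO_4OI against KO_CTR 6 of these rose and 6 fell, beside 13.0% and 14.2% of all genes. Those with the smallest p that rose were Atf3, a stress-induced factor of the same family, by 2.17 (adjusted p = 7.05e-05), the secreted Gdf15 by 1.70 (adjusted p = 0.000314), the pseudokinase Trib3 by 1.49 (adjusted p = 0.000349) and Atf5 by 1.14 (adjusted p = 0.000376). Nupr1, another stress gene, fell by 1.30 (adjusted p = 0.000194), and Ppp1r15a, the phosphatase subunit that reverses eIF2 phosphorylation, by 1.32 (adjusted p = 0.000274). Against WT_CTR 5 rose and 4 fell, beside 12.1% and 12.2% of all genes. In KO_CTR against WT_CTR edgeR called 0 of 23, with 2 at the unadjusted p, 1 by DESeq2 and 0 by limma-trend.

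Of 20 cytosolic aminoacyl-tRNA synthetases, several of them known ATF4 targets, only Eprs rose in KO_4OI against KO_CTR, by 0.89 (adjusted p = 0.0379). None fell, whereas over all genes 13.0% rose and 14.2% fell. The next by p were Tars, Qars, Lars, Gars and Sars, with log2 fold changes of 0.45, -0.29, 0.52, -0.26 and -0.21, none past the threshold. Against WT_CTR 4 fell and 0 rose, beside 12.2% and 12.1% of all genes. The lowest p was that of Gars, which fell by 0.71 (adjusted p = 0.00303). Between KO_CTR and WT_CTR edgeR, DESeq2 and limma-trend each called 0 of 20, 11 passed edgeR's unadjusted p, and 19 of 20 log2 fold changes were negative, with a median of -0.37 beside -0.46 for the 10 members.

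Of 9 other regulators 8 were tested, and in KO_4OI against KO_CTR 1 rose and 1 fell, beside 13.0% and 14.2% of all genes. Nfe2l2, the gene for the factor NRF2, which in human cancer cells is known to raise serine synthesis genes through ATF4, rose in KO_4OI by 0.71 against KO_CTR (adjusted p = 0.00334) and by 0.64 against WT_CTR (adjusted p = 0.00693). Castor1, an arginine sensor of the mTORC1 pathway, fell by 1.42 against KO_CTR (adjusted p = 0.00134). Myc, known to drive Slc7a5 and Shmt2 in other cells, had 57.7 ± 23.6 CPM in KO_4OI, against 49.4 ± 9.28 in KO_CTR and 88.0 ± 11.4 in WT_CTR. Its log2 fold change was 0.22 in KO_4OI against KO_CTR (adjusted p = 0.564), -0.61 in KO_4OI against WT_CTR (adjusted p = 0.108) and -0.83 in KO_CTR against WT_CTR (adjusted p = 0.136).

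**Figure D5:**
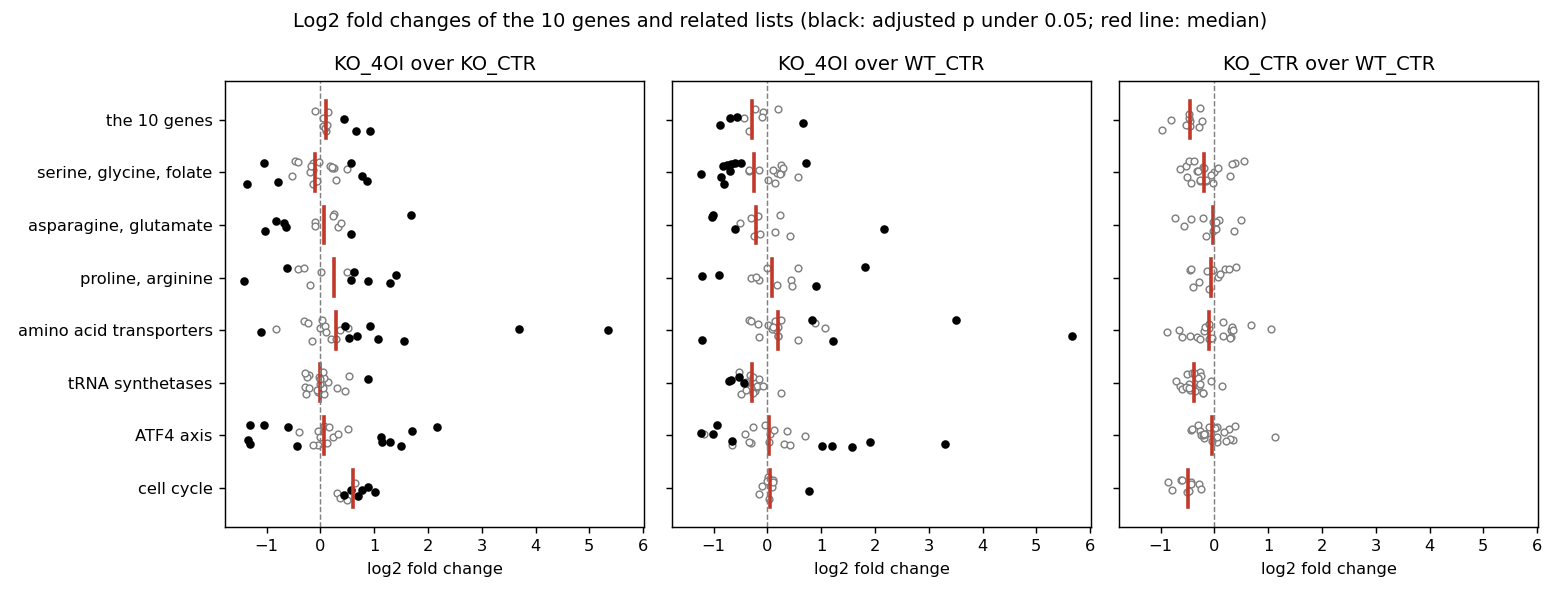
Log2 fold change (x axis) of every tested gene of the 10 members, 6 related lists and the cell cycle list (y axis) in the 3 comparisons; black points have an adjusted p under 0.05 and red lines are medians. In KO_4OI over KO_CTR black points lie on both sides of 0 for most lists, and in KO_CTR over WT_CTR no point is black.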

How the data were processed

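RNA was measured in 9 libraries, 3 per group, grouped by title and genotype. No label ties replicates to separate mice. Xist reads in 1 of 3 KO_4OI and 1 of 3 WT_CTR libraries show that each of these groups held more than 1 mouse. The p-values reflect library-to-library spread, part of which may be technical. The values deposited are raw counts of reads for each Ensembl gene. The authors used fastp, STAR and HTSeq 0.6.1 with mm10, per the submitters' processing notes. Annotation release, strand setting and the versions of fastp and STAR were not given in the sources used here. Coordinates and exon lengths come from GENCODE vM21.

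Genes were kept with filterByExpr (minimum count 10), which left 14264, scaled with TMM and fitted over all 9 libraries with edgeR 4.0.16 (glmQLFit and glmQLFTest, group only, R 4.3.3). Tests were two-sided, with Benjamini-Hochberg adjustment across the genes tested and a threshold of 0.05. The SE is the log2 fold change over the square root of F. The common biological coefficient of variation was 0.179, and the pipeline was tested on simulated data. Within groups the chi-square between library pairs was at least 8.04 per gene, above sampling noise.

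The members, lists, rules and alternatives were chosen with earlier results of these data known. Named genes are the 10 members, of each list up to 6 genes with the smallest p in KO_4OI against KO_CTR, relatives and regulators chosen by name (Atf4, Slc3a2, Shmt1, Pycr3, Prodh, Mthfd2l, Mthfd1l, Nfe2l2 and Myc), and the 3 genes most like Asns, Phgdh and Pycr1. Mthfd1 was named after its values were seen. Some genes counted in the lists are not reported here by name. Alternatives changed the scaling (RLE, upper quartile), the filter (none, or a mean of 5 CPM or more), the tool (DESeq2 1.42.0, or limma-trend in limma 3.58.1 with a prior count of 2) and the libraries (only the 2 groups compared, each library left out, the libraries with Xist reads left out, or a divergent library left out of each group). A replicate block and Xist status were tried as covariates.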

Additional observations from a re-analysis of the deposited data

How the results depend on the processing

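In KO_4OI against KO_CTR the count of 3 members stayed between 2 and 3 in all 20 alternatives, and Psat1 and Phgdh passed in each. With 1 divergent library of each group left out, Slc7a5 passed at 0.37 (adjusted p = 0.0434 in edgeR, range over its alternatives 0.0434 to 0.973). The libraries were KO_4OI replicate 2, KO_CTR replicate 2 and WT_CTR replicate 3, named as standing apart in an earlier analysis of these data. Leaving out libraries chosen this way narrows the spread by itself, so calls gained there add no support. Within KO_4OI, the chi-square per gene from replicate 1 was 19.8 to replicate 2 and 21.5 to replicate 3. Leaving out only KO_4OI replicate 3 gave Slc7a5 -0.24. In KO_4OI against WT_CTR the count of 4 ran from 0 to 4 with 1 library left out. In KO_CTR against WT_CTR the count of 0 became 2 without the low-count filter, 2 in DESeq2, 1 with only both groups compared and 4 with the divergent libraries left out, and ran from 0 to 1 with 1 library left out. All genes called there numbered 74, against 144 with upper-quartile scaling, 879 without the filter, 30 at 5 CPM or more, 629 in DESeq2, 5 without the libraries with Xist reads, 4 with Xist status as a covariate and 1687 with the divergent libraries left out, and 0 to 247 with 1 library left out. The causes were not tested.

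Some log2 fold changes turned sign. None of them passed the threshold with all 9 libraries in edgeR or where the sign had turned. In KO_4OI against KO_CTR upper-quartile scaling gave Psph -0.0060 and Aldh18a1 -0.016. Leaving out the libraries with Xist reads gave Aldh18a1 -0.10, Slc7a5 -0.24 and Slc7a1 -0.13, and Xist status as a covariate gave Aldh18a1 -0.035, Slc7a5 -0.066 and Slc7a1 -0.023. Without the divergent libraries Shmt2 was 0.12, and Pycr1 was 0.12 in KO_4OI against WT_CTR. With 1 library left out, KO_4OI against KO_CTR ran from -0.057 to 0.20 for Asns, -0.013 to 0.093 for Psph, -0.32 to 0.073 for Shmt2, -0.10 to 0.22 for Aldh18a1, -0.24 to 0.34 for Slc7a5 and -0.13 to 0.35 for Slc7a1, and KO_4OI against WT_CTR from -0.22 to 0.042 for Pycr1.

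Whether the replicate numbers pair the samples cannot be told from the correlations of deviations between groups. These ran from -0.41 to 0.32 for same-numbered libraries and from -0.41 to 0.54 for the others, with few libraries per group. KO_4OI replicate 3 had 8764 Xist reads and KO_CTR replicate 3 had 0, so these libraries did not come from the same mouse. With the replicate block 2, 3 and 0 members and 3121, 2871 and 6 genes were called in KO_4OI against KO_CTR, KO_4OI against WT_CTR and KO_CTR against WT_CTR.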
